A study of Homo sapiens with 2 samples.

Results

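The RNA of 46 genes of peroxisome proliferator-activated receptor (PPAR) signalling and fatty acid oxidation was compared between carmustine-resistant and parental A2058 cells. The genes were chosen by name, and their values are those of all array probes that the platform annotation gives to these symbols. This list and the other gene lists below were made with earlier results of these data known. Their shares beside all detected genes are therefore descriptions and not tests. Of the 46 genes, 45 had a named probe, with 81 probes in all, out of 20046 genes with a named probe on the array. ACSL3 had none and is named only. At least 1 probe was detected for 41 of the 46 genes, against 12832 genes over the whole array.

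A2058 is a long-established line of human melanoma cells. The carmustine-resistant cells were A2058 cells selected with carmustine, an agent that alkylates and crosslinks DNA, and the parental cells were A2058 cells without that selection. The sample labels give 100 uM over 6 months, and the study's own account is of repeated short treatments with regrowth in between, with the dose raised step by step to that level. By the study's methods, A2058 cells were grown in DMEM with serum and antibiotics, and RNA was extracted with Trizol. Those methods word the array fold as suspended over adherent cells. If the cultures differed in that form, it cannot be told apart from selection here. Each condition had 1 Illumina bead array of 47323 probes, so no difference below has a replicate check, no test of the conditions was possible, and precision is limited by the number of arrays. The resistant cells are a population that survived selection, and a single line was used, so selection in other lines was not analysed here. In RNA from whole cultures, fewer cells with a transcript and less of it per cell cannot be told apart.

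PPARs are nuclear receptors that are switched on by fatty acids and their derivatives and bind DNA together with a retinoid X receptor (RXR). Their known target genes take up fatty acids, bind them, store them in lipid droplets and burn them. In beta-oxidation, fatty acids are activated to acyl-CoA, carried into mitochondria on carnitine or handled in peroxisomes, and shortened step by step, while electrons pass to the respiratory chain. Melanoma cells can use fatty acids as well as glucose as fuel.

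The sequences upstream of a few of these genes are shown because PPAR and RXR bind a pair of AGGTCA hexamers in the same direction with 1 base between them, an element called DR1. The RefSeq promoter table of GRCh38.p14, with 1 start per gene, held 39 of the 46 genes. Each line gives the 250 bases before the start, 5′ to 3′ on the strand of the gene. PPARG, PDK4, FABP7 and ECHDC2 are shown because the arrays differed most at them among the genes in the table. ACAA2 is shown because it held the closest match to DR1. Capitals mark an AGGTCA hexamer on either strand, and in ACAA2 the DR1-like stretch.
PPARG (chr3:12287118-12287367, plus strand): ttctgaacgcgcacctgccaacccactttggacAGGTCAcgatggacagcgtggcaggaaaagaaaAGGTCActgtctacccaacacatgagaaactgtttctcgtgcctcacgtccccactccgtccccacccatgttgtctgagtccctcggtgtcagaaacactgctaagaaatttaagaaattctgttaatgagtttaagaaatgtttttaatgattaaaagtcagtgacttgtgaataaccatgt
PDK4 (chr7:95596517-95596766, minus strand): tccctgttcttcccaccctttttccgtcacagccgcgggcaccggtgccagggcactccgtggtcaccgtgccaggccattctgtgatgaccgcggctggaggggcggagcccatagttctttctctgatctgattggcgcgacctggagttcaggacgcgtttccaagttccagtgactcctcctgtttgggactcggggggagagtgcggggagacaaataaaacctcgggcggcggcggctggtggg
FABP7 (chr6:122779466-122779715, plus strand): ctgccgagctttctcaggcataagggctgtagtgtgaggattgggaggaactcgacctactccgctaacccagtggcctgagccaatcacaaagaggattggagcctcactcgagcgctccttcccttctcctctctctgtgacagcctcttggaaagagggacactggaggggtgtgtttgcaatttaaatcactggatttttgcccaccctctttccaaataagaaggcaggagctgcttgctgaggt
ECHDC2 (chr1:52921775-52922024, minus strand): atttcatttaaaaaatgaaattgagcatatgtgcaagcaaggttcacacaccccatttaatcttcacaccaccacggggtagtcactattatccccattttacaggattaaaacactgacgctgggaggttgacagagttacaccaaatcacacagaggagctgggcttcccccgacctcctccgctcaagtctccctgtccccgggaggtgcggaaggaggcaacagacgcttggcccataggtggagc
ACAA2 (chr18:49813534-49813783, minus strand): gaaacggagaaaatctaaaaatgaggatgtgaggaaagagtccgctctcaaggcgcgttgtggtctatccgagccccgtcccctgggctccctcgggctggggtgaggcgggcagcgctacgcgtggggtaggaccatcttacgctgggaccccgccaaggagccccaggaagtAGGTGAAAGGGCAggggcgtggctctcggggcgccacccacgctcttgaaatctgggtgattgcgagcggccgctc
PPARG had 2 AGGTCA hexamers before its start, and PDK4, FABP7 and ECHDC2 had none in this window. AGGTCA on either strand, counted over the window of 250 bases before to 50 after the start, was found for 4 of the 39 genes (ACOT7, ACSL5, PNPLA2 and PPARG), which is 10.3%. It was found in 13.9% of all 27305 promoters of the table and in 10.0% of the 10238 promoters of genes detected on these arrays. An exact DR1 was in none of the 39 and in 0.022% of all promoters. With up to 2 mismatches, DR1 was found for ACAA2 only, at position -76 from the start on the plus strand of the gene, which is 2.56% of the 39 against 2.99% of all promoters and 2.15% of those of detected genes. The GC content of the same window was 45% for PPARG, 52.7% for FABP7, 53% for ECHDC2, 60.7% for PDK4 and 65.7% for ACAA2, and its median was 64.7% over the promoters of detected genes. These matches describe letters in the windows and say nothing of binding.

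Values are given as log2 signals, which were corrected for background, quantile normalized between both arrays and taken from the brightest detected probe of each gene. A probe was called detected where its detection p-value, which sets its signal against that of negative control beads, was under 0.05. Higher and lower are used for a fold above 2 or under 0.5, carmustine-resistant over parental, and values are given without such a word otherwise. Where a probe was detected on 1 array only, the fold is given as "at least", since the dim side was set to the lowest signal of any detected probe, 4.79 on the carmustine-resistant and 4.89 on the parental array (log2), or to the probe's own signal where that was higher. Such a bound holds for the reported processing only, and some other settings gave smaller ones. As a yardstick, the spread of a single probe around its gene (an SD, from pairs of probes detected on both arrays) was 0.30 on the log2 scale over 2892 genes. It covers probe effects and not the spread between cultures.

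By the probe used for each gene, 35 of the 41 detected genes were detected on both arrays. Another 4 were detected on the carmustine-resistant array only (PPARA, PPARG, FABP4 and ACSL5) and 2 on the parental array only (ECHDC2 and ACOT2). In carmustine-resistant cells 5 of 41 were higher (PPARG, FABP4, PDK4, RXRA and PPARGC1A), or 12.2% against a background of 7.1% of all detected genes. ECHDC2 and FABP7 were lower, 2 of 41 or 4.88% against a background of 5.81%. The other 34 lay within 2-fold. The median log2 difference was 0.11 over the 41 genes and -0.0034 over all detected genes, with 22 genes above 0 and 19 below. The list as a whole therefore lay close to the rest of the array, and the larger differences belonged to a few genes. The carmustine-resistant array was the brighter of the pair, with a median deposited signal of 63.1 against 52.5 on the parental array. Without normalization between arrays the median of all detected genes moved to 0.37, and 12 members were then higher and 2 lower, against 1817 and 341 of all genes.

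**Figure D1:**
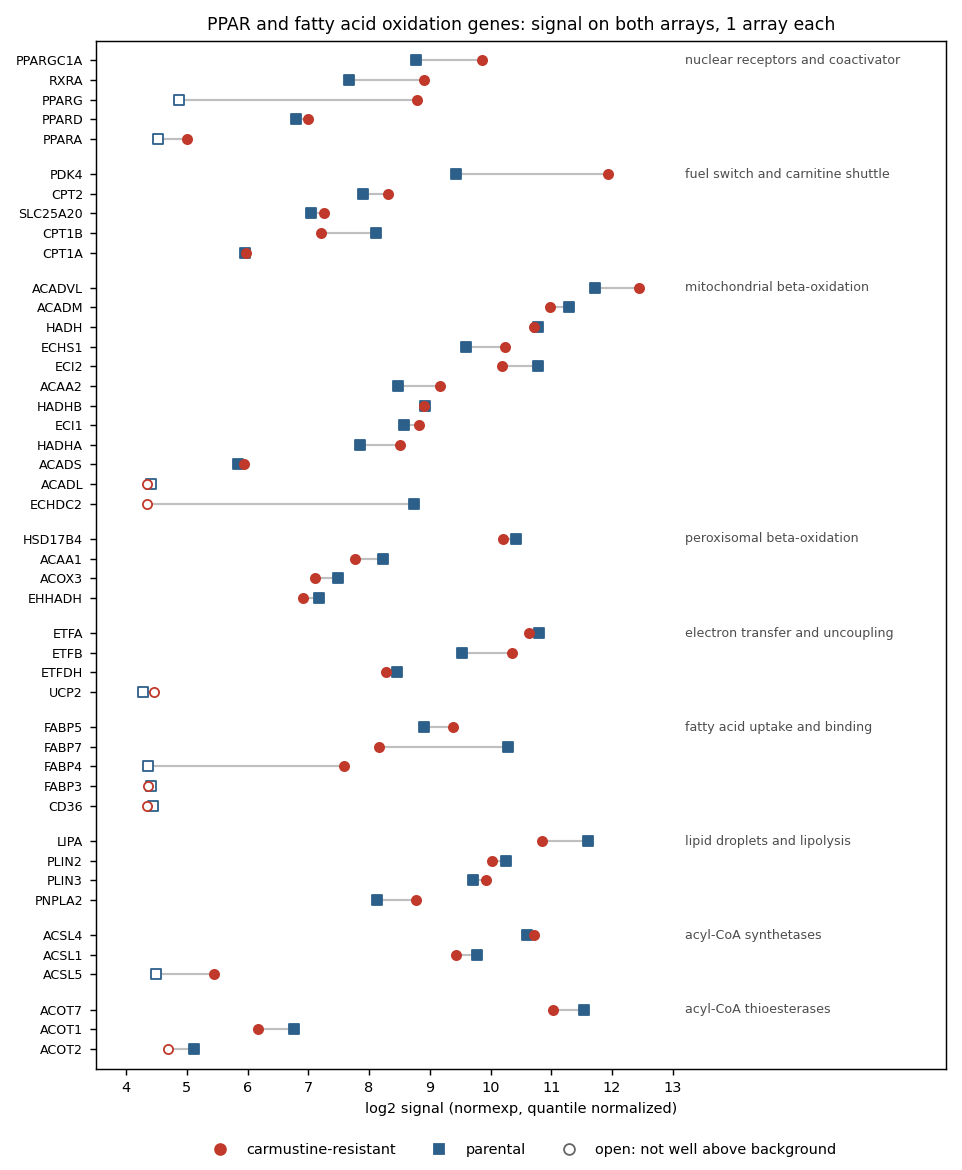
The plot gives the log2 signal of the 45 genes with a named probe, grouped by role, with 1 point per array (red circles, carmustine-resistant; blue squares, parental; open symbols, not well above background). The carmustine-resistant point lies far to the right of the parental point of the same gene for PPARG (8.79 and 4.87), FABP4 (7.59 and 4.37) and PDK4 (11.94 and 9.42), and far to the left of it for ECHDC2 (4.34 and 8.74) and FABP7 (8.16 and 10.28).

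The nuclear receptors and their coactivator, 5 detected genes, held 3 of the 5 higher genes, where 7.1% of all detected genes were higher. PPARG, the receptor best known from fat cell differentiation, had a log2 signal of 8.79 in carmustine-resistant cells and 4.87 in parental cells, where it was not well above background. It was at least 14.9-fold higher. The parental signal of this probe was just outside the detection limit, with a detection p-value of 0.0584. The second detected PPARG probe gave 7.39 in carmustine-resistant and 4.36 in parental cells, with a parental detection p-value of 0.697, and was at least 5.67-fold higher. The other 2 PPARG probes were not detected on either array, so the probes of this gene were not of one kind. Their place in the gene's transcripts was not analysed here.

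RXRA, a retinoid X receptor that pairs with PPARs on DNA, had 8.90 in carmustine-resistant and 7.67 in parental cells, a 2.35-fold difference. PPARGC1A, a coactivator of PPARs and of mitochondrial genes, had 9.85 in carmustine-resistant cells against 8.77 in parental cells, which was 2.11-fold higher and only just past the limit of 2-fold. Each rested on 1 probe. Among the 10905 genes detected on both arrays, RXRA was the 429th and PPARGC1A the 535th from the highest difference.

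PPARA and PPARD, the receptors best known from liver and muscle, lay within 2-fold. PPARA was near background, with 5.00 in carmustine-resistant cells (detection p-value 0.0117) and 4.53 in parental cells, where it was not detected, and the difference was at least 1.08-fold. Its other 2 probes were not detected. PPARD had 7.0 in carmustine-resistant and 6.80 in parental cells. A second PPARD probe had 4.83 in carmustine-resistant and 5.08 in parental cells, so both probes differed in sign, with log2 differences of 0.19 and -0.25. The gap of 0.44 between them was the widest among the 10 members with more than 1 probe detected on both arrays.

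Of the genes that set the choice of fuel and carry fatty acids into mitochondria, PDK4 was higher. PDK4 is a kinase that switches off pyruvate dehydrogenase and so limits the entry of glucose carbon into mitochondria, and it is a known PPAR target. Its signal was 11.94 in carmustine-resistant cells and 9.42 in parental cells, with a deposited signal of 4612 against 622. It was 5.72-fold higher and the 97th from the highest among genes detected on both arrays. The genes of the carnitine shuttle lay within 2-fold. CPT1A, the liver form of the rate-limiting carnitine transferase, had 5.97 in carmustine-resistant and 5.96 in parental cells. Its 2 other probes were detected in carmustine-resistant cells only, with bounds of 1.32-fold and 1.14-fold. CPT1B, the muscle form, had 7.21 in carmustine-resistant and 8.12 in parental cells, a log2 difference of -0.91. The transferase of the inner membrane, CPT2, and the carrier SLC25A20 had log2 differences of 0.41 and 0.22.

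**Figure D2:**
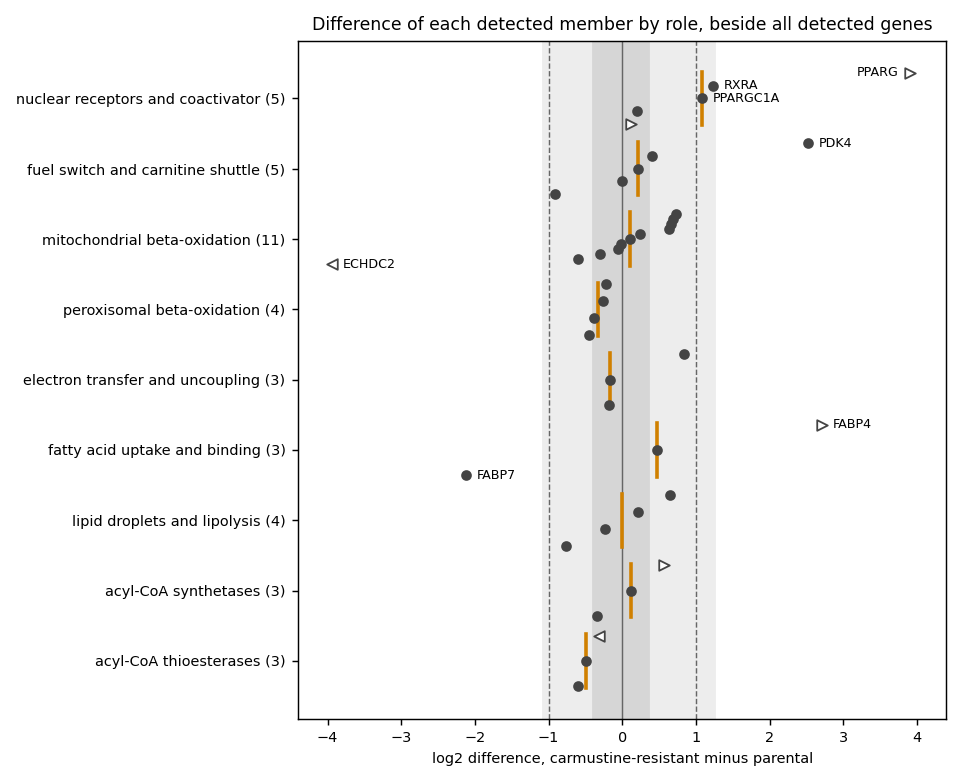
Each point is the log2 difference, carmustine-resistant minus parental, of 1 of the 41 detected genes by role (number of genes in brackets; arrowheads, bounds for genes detected on 1 array; orange bars, medians). The grey bands hold the middle 50% and 90% of all detected genes (-0.40 to 0.37 and -1.07 to 1.26), the dashed lines mark 2-fold, and only the 7 labelled genes lie beyond them.

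The detected genes listed under mitochondrial beta-oxidation stayed within 2-fold apart from ECHDC2. ECHDC2, a protein of the enoyl-CoA hydratase family, had 4.34 in carmustine-resistant cells, where it was not well above background (detection p-value 0.730), and 8.74 in parental cells. It was at least 15.4-fold lower in carmustine-resistant cells, from 1 probe. The median log2 difference of the 11 detected genes on this list was 0.11, with 6 above 0 and 5 below, and with 9 above 0 and 2 below without normalization between arrays. ACADL, the long-chain acyl-CoA dehydrogenase, was not detected on either array.

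Above 0 lay 4 enzymes with differences between 1.5-fold and 2-fold, and without normalization between arrays these 4 passed 2-fold, with log2 differences of 1.15 for ACADVL, 1.09 for HADHA, 1.03 for ECHS1 and 1.09 for ACAA2, where the median of all genes was 0.37. ACADVL, the very-long-chain acyl-CoA dehydrogenase, had 12.44 in carmustine-resistant and 11.71 in parental cells, a log2 difference of 0.73, and its 3 probes gave 0.73, 0.80 and 0.88. HADHA, the alpha subunit of the trifunctional protein, had 8.52 in carmustine-resistant and 7.85 in parental cells. ECHS1, the short-chain enoyl-CoA hydratase, had 10.23 in carmustine-resistant and 9.60 in parental cells. ACAA2, the mitochondrial thiolase whose upstream sequence is given above, had 9.16 in carmustine-resistant and 8.48 in parental cells. HADHB, the beta subunit of the trifunctional protein, had 8.90 in carmustine-resistant and 8.92 in parental cells, so the array values of the subunits were not alike.

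The remaining enzymes of the pathway lay closer to 0 or below it. HADH, the short-chain hydroxyacyl-CoA dehydrogenase, had a log2 difference of -0.06, ACADS, the short-chain acyl-CoA dehydrogenase, one of 0.11, and ACADM, the medium-chain enzyme, one of -0.30 with -0.20 at its second probe. ECI1 and ECI2, isomerases that prepare unsaturated fatty acids for oxidation, differed in sign, with 0.25 and -0.60. Both detected ECI2 probes gave nearly the same value, -0.60 and -0.62.

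The 4 peroxisomal enzymes were all below 0 and within 2-fold, with a median log2 difference of -0.33 that became 0.11 without normalization between arrays, where 3 of 4 were above 0, and -0.03 with scaling to the median, where 2 of 4 were above 0. Relative to the median of all genes it ran from -0.36 to -0.26 over the settings tried. ACAA1, the peroxisomal thiolase, had 7.77 in carmustine-resistant and 8.23 in parental cells. ACOX3, an oxidase of branched-chain fatty acids, had 7.11 in carmustine-resistant and 7.49 in parental cells. The bifunctional enzymes EHHADH and HSD17B4 had log2 differences of -0.27 and -0.22. All 4 genes rested on 1 probe each.

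Among the proteins that take electrons from beta-oxidation, the subunits of the electron transfer flavoprotein had values on both sides of 0, all within 2-fold. ETFB had 10.35 in carmustine-resistant and 9.52 in parental cells, a log2 difference of 0.83, with 0.91 at its second detected probe. ETFA had 10.62 in carmustine-resistant and 10.80 in parental cells, a log2 difference of -0.17. ETFDH, which passes the electrons on to ubiquinone, had -0.19. UCP2, an inner membrane carrier known as a PPAR target, was not detected on either array.

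The fatty acid binding proteins, small carriers of fatty acids inside the cell, gave values in opposite directions. FABP4, the form of fat cells and macrophages and a known PPARG target, had 7.59 in carmustine-resistant cells and 4.37 in parental cells, where it was not well above background (detection p-value 0.669). It was at least 6.53-fold higher, from 1 probe. FABP7, the brain form, which is also made by melanoma cells, was lower by 4.34-fold, with 8.16 in carmustine-resistant and 10.28 in parental cells. It was the 75th from the lowest difference among genes detected on both arrays. FABP5, the epidermal form, had 9.38 in carmustine-resistant and 8.91 in parental cells, a log2 difference of 0.47, with 0.34 at a second probe. FABP3, the heart form, and CD36, a membrane receptor for fatty acids with 3 probes, were not detected on either array.

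Since PPARG and FABP4 are markers of fat cells and FABP4 also of macrophages, other markers of these cells were read from the same arrays, and a marker was counted as detected where any of its probes was. Of 8 fat cell markers, 4 were detected in carmustine-resistant and 2 in parental cells, and none was higher or lower. Their summed signal was 624 in carmustine-resistant and 598 in parental cells, and ADIPOQ, PLIN1, GPD1 and RETN were not detected on either array. Of 8 macrophage markers, 2 were detected in carmustine-resistant and 3 in parental cells, and none was higher or lower. Their summed signal was 2191 in carmustine-resistant and 1228 in parental cells. Most of it was CD68, with 11.06 in carmustine-resistant and 10.18 in parental cells. MARCO and AIF1 were near background, with 4.79 and 4.63 in carmustine-resistant and 4.94 and 5.26 in parental cells. CD163, MRC1, CSF1R, MSR1 and PTPRC were not detected. Of 6 endothelial markers, 3 were detected in carmustine-resistant and 2 in parental cells, and CDH5, KDR and CLDN5 were not detected. Of these, 2 (PECAM1 and TEK) were higher. VWF lay within 2-fold, with 5.29 in carmustine-resistant and 5.48 in parental cells. The summed signal of these 3 was 279 in carmustine-resistant and 99.9 in parental cells. Over all detected genes, 7.1% were higher and 5.81% lower. Of 8 fibroblast markers, which melanoma cells can also express, 7 were detected in carmustine-resistant and 3 in parental cells, and COL1A2 was not detected. Of these, 4 were higher (PDGFRB, FAP, THY1 and COL3A1) and 2 lower (LUM and DCN). Their summed signal was 1781 in carmustine-resistant and 3664 in parental cells. LUM, the brightest of them, had 9.96 in carmustine-resistant and 11.57 in parental cells.

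Melanocytic markers were read to check the labelled cell type, and most of them were lower, as FABP7 and ECHDC2 were. With 1 array per condition, a link between them cannot be read from these values. Of 7 with a named probe, 6 were detected on both arrays and 5 of these were lower in carmustine-resistant cells, against 5.81% of all detected genes. The summed signal of the 6 was 4071 in carmustine-resistant and 43130 in parental cells. SOX10 had 10.47 in carmustine-resistant and 11.38 in parental cells, and S100B was not detected on either array. The part of these differences in the values of the fatty acid genes was not tested.

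Genes of lipid droplets and lipolysis lay within 2-fold. LIPA, the acid lipase of lysosomes, had 10.84 in carmustine-resistant and 11.60 in parental cells, a log2 difference of -0.77. PNPLA2, the lipase that starts the breakdown of droplet triglyceride, had 8.78 in carmustine-resistant and 8.13 in parental cells, a log2 difference of 0.64. PLIN2 and PLIN3, which coat lipid droplets, had -0.23 and 0.21, and the second PLIN2 probe had -0.31.

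The acyl-CoA synthetases, which activate fatty acids, also lay within 2-fold. ACSL1 had a log2 difference of -0.34. ACSL4, which prefers arachidonic acid, had 0.12 at its brighter probe (10.72 in carmustine-resistant and 10.60 in parental cells) and -0.22 at a second one (6.98 in carmustine-resistant and 7.20 in parental cells). ACSL5 was detected in carmustine-resistant cells only, with 5.45 there and 4.50 in parental cells, at least 1.48-fold. A second ACSL5 probe was detected in carmustine-resistant cells only, at least 1.02-fold, and the other 3 were not detected.

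The thioesterases, which split acyl-CoA again, had a median log2 difference of -0.50. ACOT7 had 11.03 in carmustine-resistant and 11.53 in parental cells, with log2 differences of -0.50 and -0.41 at its 2 detected probes, and its 4 other probes were not detected. ACOT1 had 6.17 in carmustine-resistant and 6.77 in parental cells. ACOT2 had 4.69 in carmustine-resistant cells, not well above background, and 5.11 in parental cells, at least 1.25-fold, while its other probe was detected on both arrays with 4.90 in carmustine-resistant and 4.89 in parental cells. ACOT1 and ACOT2 are near-identical copies of one gene, so their probes may read both.

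**Figure D3:**
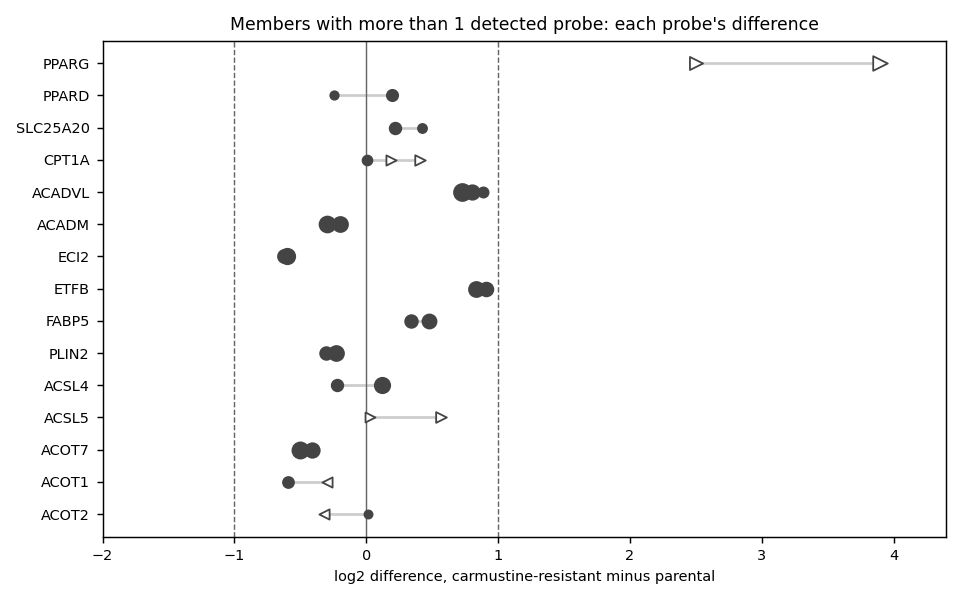
Each symbol is the log2 difference, carmustine-resistant minus parental, of 1 detected probe, for the 15 genes with more than 1 (circles, detected on both arrays; arrowheads, bounds for probes detected on 1; larger symbols, brighter probes). Both PPARG probes lie beyond 2-fold (dashed lines, at bounds of 2.50 and 3.90), and all probes of the other 14 genes lie within it.

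Other genes of the pathway were read from a list of their own. Of these 86 genes, 77 had a named probe and 61 were detected, 8 of them higher (7 by their bounds) and 4 lower, with a median log2 difference of 0.04. These are 13.1% higher and 6.56% lower, against 7.1% and 5.81% of all detected genes. Among known PPAR targets, ANGPTL4, a secreted inhibitor of lipoprotein lipase, had 7.82 in carmustine-resistant and 4.39 in parental cells at its bright probe, at least 7.64-fold higher, and a second probe had 5.52 in carmustine-resistant and 5.16 in parental cells, so that ANGPTL4 lay within 2-fold (log2 difference 0.35) where detection on both arrays was asked for. HILPDA, a lipid droplet protein, had 8.47 in carmustine-resistant cells against 7.08 in parental cells and was 2.64-fold higher. PLIN5, which ties droplets to mitochondria, had 7.29 in carmustine-resistant and 8.40 in parental cells and was 2.16-fold lower at its bright probe, and a dim second probe had 4.80 in carmustine-resistant and 4.38 in parental cells. Among the remaining genes of this group, LPL had a log2 difference of -0.07 and CAT one of -0.43. The other kinases of pyruvate dehydrogenase lay within 2-fold, with log2 differences of 0.74 for PDK1 and -0.27 for PDK3. PDK2 had 4.82 in carmustine-resistant and 4.69 in parental cells, where it was not detected, and no fold is given since both values were under the lowest detected parental signal.

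Of 24 detected genes of fatty acid oxidation outside the 46, 4 were higher (3 by their bounds) and 1 was lower, which is 16.7% and 4.17% against 7.1% and 5.81% of all detected genes. ACOX2, the peroxisomal oxidase of bile acid precursors, had 7.15 in carmustine-resistant and 4.85 in parental cells, at least 4.81-fold higher. ECHDC3, another protein of the hydratase family, had 7.02 in carmustine-resistant and 5.10 in parental cells and was 3.79-fold higher. These values ran opposite to those of ECHDC2. ACOT11 was 2.13-fold higher at its bright probe, with 6.42 in carmustine-resistant and 5.33 in parental cells. A second ACOT11 probe was detected in carmustine-resistant cells only, at least 1.03-fold. CPT1C, the brain form of the carnitine transferase, had 5.85 in carmustine-resistant cells and 4.31 in parental cells, where it was not detected. It was counted as higher by its measured values, although its bound was 1.94-fold and lay within 2-fold in 7 of 10 other settings. DECR2, a peroxisomal reductase for unsaturated fatty acids, had 8.50 in carmustine-resistant and 10.08 in parental cells and was 3.0-fold lower.

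The processing moved the size of these differences more than their side. All 7 members past 2-fold stayed past it in each of the other settings that gave them a value. There were 11 such settings for PDK4, RXRA, PPARGC1A and FABP7. There were 10 for PPARG, FABP4 and ECHDC2, which have no value where detection on both arrays is asked for. PDK4, RXRA, PPARGC1A and FABP7 each had 1 probe, detected on both arrays, so the detection filters and the median over probes could not change their values. PPARG ran from 2.90 to 4.98 on the log2 scale, FABP4 from 1.84 to 3.71, PDK4 from 2.46 to 2.95, RXRA from 1.11 to 1.65 and PPARGC1A from 1.02 to 1.49. FABP7 ran from -2.18 to -1.70 and ECHDC2 from -5.14 to -2.90. By measured differences, without bounds, 37 of all 41 genes kept their side of the median of all genes in every setting tried. PPARD, HADHB, ACSL4 and ACOT2 did not. By its bound PPARA ran from -0.10 to 0.33 and so changed sign.

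**Figure D4:**
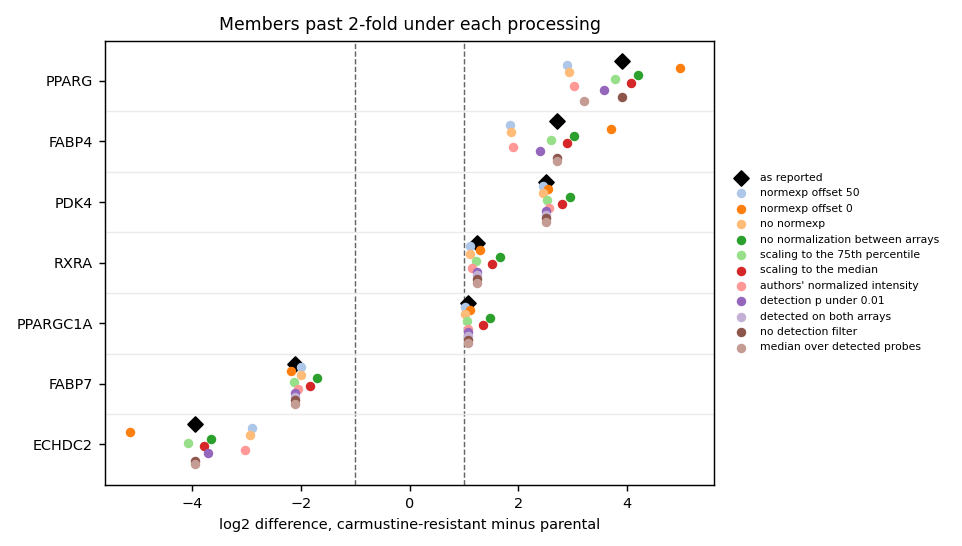
The plot gives the log2 difference, carmustine-resistant minus parental, of the 7 genes past 2-fold under the reported processing (black diamonds) and under up to 11 others (coloured circles), with bounds for PPARG, FABP4 and ECHDC2. All symbols lie beyond the dashed lines at 2-fold, with the lowest size at PPARGC1A (1.02), and the 3 genes with bounds spread the most.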

How the data were processed

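RNA of 1 carmustine-resistant and 1 parental A2058 culture was hybridised to HumanHT-12 v4 bead arrays. The authors deposited mean bead signals per probe, an intensity on a linear scale before normalization, each with a detection p-value, and a second table of normalized intensity (method not given in the sources used here). The methods' fold is worded for suspended over adherent cells, and carmustine-resistant over parental was used here, from the labels. The lowest deposited signals were 30.5 on the carmustine-resistant and 25.7 on the parental array, and 45.6% of probes were detected in carmustine-resistant and 42.5% in parental cells.

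Signals were corrected with normexp (background from the detection p-values, offset 16), normalized by quantiles and log2 transformed with limma 3.58.1 in R 4.3.3. Counts, lists, promoter searches and figures used Python 3.11.15, numpy 2.4.6, pandas 2.3.3 and matplotlib 3.10.9. Gene names came from the platform annotation (30113 probes with 1 symbol, and 8 with several, left unnamed). A gene was represented by its probe detected at p under 0.05 on at least 1 array with the highest mean log2 signal. With 1 array per condition no test was run. Every member was accounted for, and values on both arrays are given for members past 2-fold, detected on 1 array or with probes that disagree, and for other pathway genes past 2-fold. Values of further members and of pathway genes within 2-fold were added after they were seen. Members and lists were chosen with earlier results of these data known. The alternatives were normexp offsets of 50 and 0, no normexp, no normalization, scaling to the 75th percentile or the median, the authors' normalized intensity, 3 other detection filters, the median over probes, and thresholds of 1.5-fold and 3-fold. The scripts were tested on simulated data.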

Additional observations from a re-analysis of the deposited data

How the results depend on the processing

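The 5 members higher and 2 lower became 12 and 2 without normalization between arrays, 8 and 2 with scaling to the median, 3 and 1 with detection on both arrays, 12 and 6 at 1.5-fold and 3 and 2 at 3-fold. Their median log2 difference of 0.11 became 0.53 without normalization, 0.39 with scaling to the median, 0.0090 with detection on both arrays, 0.0027 without a detection filter and -0.019 with the median over probes. The 8 other pathway genes higher became 5 with a normexp offset of 50 or detection on both arrays, 13 at 1.5-fold and 4 at 3-fold, and the 4 lower became 8 at 1.5-fold and 2 at 3-fold. Their median of 0.04 became 0.42 without normalization, -0.0066 with the 75th percentile, 0.29 with the median, -0.0052 with detection on both arrays and -0.0104 with the median over probes. Over all genes, 911 higher and 746 lower became 1817 and 341 without normalization, 1402 and 434 with scaling to the median, 1499 and 1332 with an offset of 0, 1965 and 2030 at 1.5-fold and 454 and 226 at 3-fold, and the lower became 470 with an offset of 50 and 479 without normexp. The brighter carmustine-resistant array shifts all genes upward where the arrays are not normalized, and an offset shrinks the differences of dim probes by its construction. The other 65 counts and medians stayed within 1.5 times the count or, for a median, within the probe spread divided by the square root of the number of genes. No paired analysis was possible because each condition had 1 array, and depth is limited by signal over background: 23 of the 81 member probes were detected on neither array.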

Other observations

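Among other receptors and cofactors of the pathway, 12 were detected, 1 was higher and 1 lower. Of all detected genes, 7.1% were higher and 5.81% lower, so these counts lay near the background. NR1H3, the liver X receptor alpha, which also pairs with RXR and responds to cholesterol derivatives, had 8.23 in carmustine-resistant and 6.19 in parental cells and was 4.12-fold higher. RXRG, another retinoid X receptor, had 5.70 in carmustine-resistant and 7.30 in parental cells and was 3.04-fold lower, so RXRA and RXRG ran in opposite directions, while RXRB had a log2 difference of -0.19. The cofactors PPARGC1B, PPRC1, NCOA1, EP300 and CREBBP lay within 2-fold, with log2 differences of -0.35, -0.04, -0.48, -0.27 and 0.53.

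Of 14 other detected genes of acyl-CoA synthesis, uptake and lipolysis, 1 was higher and 1 lower, near the 7.1% and 5.81% of all detected genes. Both were of the SLC27 family of fatty acid transport proteins. SLC27A2 had 6.57 in carmustine-resistant and 5.17 in parental cells and was 2.63-fold higher, but was within 2-fold with a normexp offset of 50, without normexp and in the authors' normalized intensity. SLC27A3 had 7.29 in carmustine-resistant and 9.28 in parental cells and was 3.99-fold lower, and stayed past 2-fold in all 11 settings. ACOT11 and PLIN5, with log2 differences of 1.09 and -1.11, lay within 2-fold in 4 and 5 of 11 settings.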
